A study of Arabidopsis thaliana with 6 samples.

Results

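The 43 nuclear genes described here encode proteins of the 2 photosystems of Arabidopsis thaliana, of 27444 nuclear protein-coding genes in all. They were taken by locus and comprised 21 antenna genes (LHCA and LHCB) and 22 genes for photosystem subunits (PSA and PSB), called core genes below. A gene was counted as having a region when the position of the region's highest signal, its summit, lay inside the gene or within 3000 bp of it. Anti-HA chromatin immunoprecipitation followed by sequencing (ChIP-seq) had been done on whole seedlings aged 15 days. All were grown on 0.8% agar with 2% sucrose, with 12 h light and 12 h dark in each day. The light was 70 umol per square metre per second. The tagged line, number 151, carried HA-PRR7 behind the promoter of PRR7 itself. The untagged line served as background for the antibody, and both lines carried the prr7-3 mutation. The 4 lists of enriched regions came from the HA-PRR7 immunoprecipitate (IP) of experiment 1, the HA-PRR7 IP of experiment 2 (lists KC and TL, which belong to 1 sample and count as 1 replicate), and the prr7-3 IP of experiment 1. No region list of the untagged IP of the second experiment was used here. Whether that IP served as control for KC and TL is not stated. The sources do not state when in the day seedlings were harvested. In whole seedlings, binding in a few cells and weaker binding in all cells cannot be told apart. With 1 IP of each line per experiment, the values below describe these libraries and no test was made between groups, nor between antenna and core genes, which are not replicates of a condition.

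In the chloroplast, antenna proteins of the light-harvesting complex family bind chlorophyll and pass the absorbed energy to photosystem I (PSI) or photosystem II (PSII). The subunits encoded by PSA and PSB genes build the photosystems themselves, among them the proteins that shield the manganese cluster where water is split. Transcripts of many antenna genes cycle through the day under the circadian clock, and the antenna genes of the LHCB1 family, first named CAB genes, have long served as clock reporters. PRR7 is a pseudo-response regulator, a clock protein that represses transcription of its target genes in the daytime.

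HA-PRR7 regions were listed at most antenna genes and at few core genes in experiment 2, and at none of them in experiment 1. In both lists of experiment 2, 13 of 21 antenna genes had a region (61.9%), and 4 of 22 core genes did (18.2%). The background was 2.34% of all nuclear protein-coding genes with a region in both lists, and the share for all 43 genes was 39.5%. In at least 1 HA-PRR7 list, 19 of the 43 genes had a region (44.2%), against a background of 7.48%. In list KC, 15 antenna and 4 core genes had a region, against a background of 2.9%, and in list TL 13 antenna and 4 core genes, against a background of 2.71%. Because neighbouring genes share regions, the 19 genes of KC rested on 18 regions of the 380 in that list, and the 17 genes of TL on 18 of its 355. None of the 43 genes had a region in HA-PRR7 experiment 1, where the background was 5.01%, and none had one in untagged prr7-3, where the background was 1.03%.

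**Figure D1:**
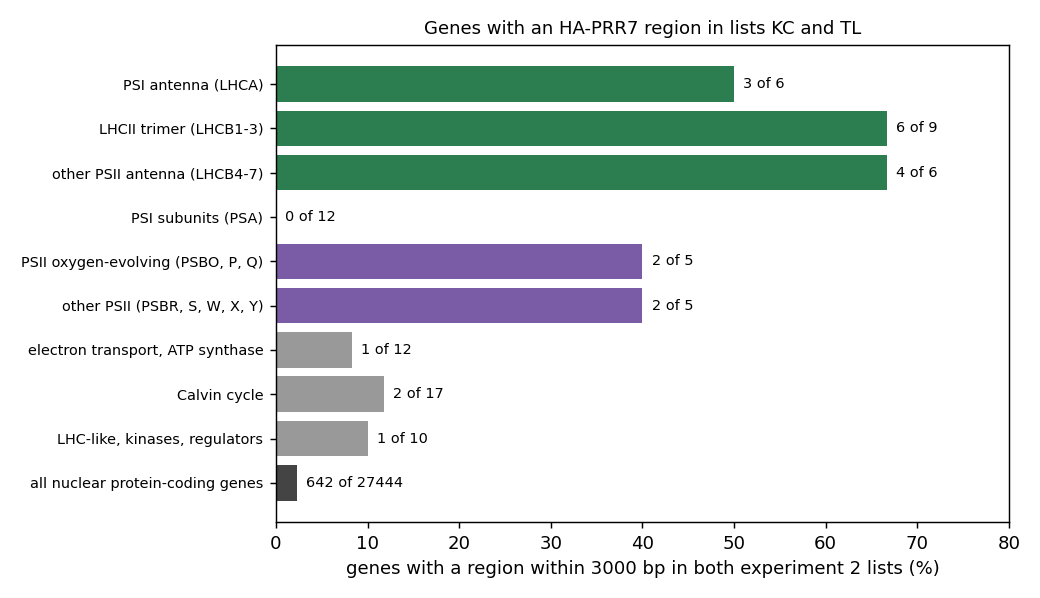
Percentage of genes with a region within 3000 bp in both lists of experiment 2, by group of genes, with the number of genes beside each bar. The 3 antenna groups (green) stand at 50% to 66.7%, the PSA genes at 0 of 12, and all nuclear protein-coding genes at 2.34%.

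The trimeric antenna of PSII (LHCII), the most abundant of the antenna complexes, is built from LHCB1, LHCB2 and LHCB3 proteins, and 6 of its 9 genes had a region in both experiment 2 lists. The highest region of all 43 genes lay beside LHCB1.1 (CAB2, AT1G29920), on chromosome 1 at 10475926 to 10476248 in TAIR10. It held 262 IP tags in KC and 251 in TL, where tags are the reads that the caller counted in the region. The control held 1 tag in KC and 0 in TL, and the region ranked 13 by IP tags in each list and 7 in KC and 6 in TL by fold enrichment (51.1-fold and 48.6-fold). Its summit was 133 bp outside LHCB1.1 in KC and 136 bp outside in TL, in the gap of 1915 bp that separates this gene from LHCB1.3. The same region is what placed LHCB1.3 (CAB1, AT1G29930) among the genes found in both lists, at 1783 bp in KC and 1780 bp in TL. LHCB1.3 also had a region nearer to it, 79 bp away with 65 IP tags, in list TL alone.

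A separate region was found at LHCB1.2 (CAB3, AT1G29910), the third gene of this tandem group, with 97 IP tags in KC and 92 in TL and no control tag in either. Its summit lay just inside the gene, 32 bp from the end facing LHCB1.1 in KC and 38 bp from it in TL. In TL each gene of the tandem group therefore had a summit within 136 bp of one of its ends, and the region at LHCB1.1 was the highest of the 3. The LHCB1 genes are near-identical copies, and the sources used here do not state how reads matching several copies were handled. Tags inside the LHCB1 genes are therefore uncertain as to the copy they came from.

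**Figure D2:**
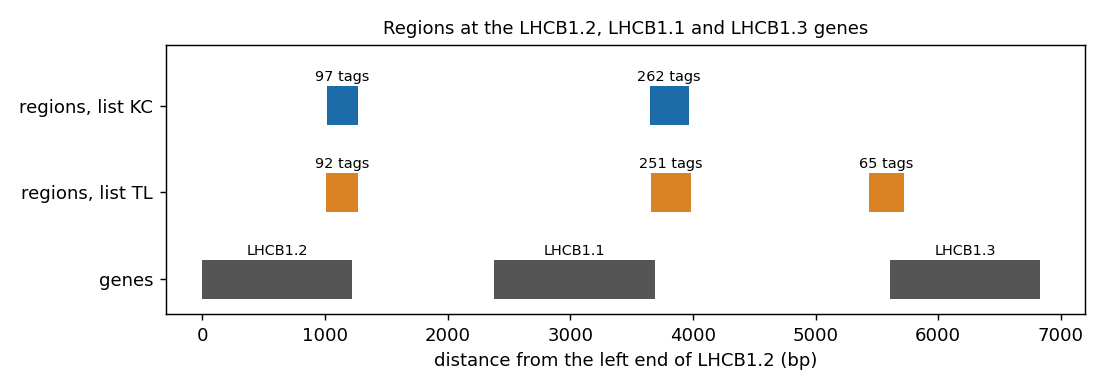
Map of LHCB1.2, LHCB1.1 and LHCB1.3 on chromosome 1 (grey, gene spans) with the regions of lists KC (blue) and TL (orange), along the distance in bp from the left end of LHCB1.2, each region labelled with its IP tags. A region at LHCB1.2 (97 and 92 tags) and one beside LHCB1.1 (262 and 251 tags) appear in both lists, and one beside LHCB1.3 (65 tags) in TL alone.

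LHCB1.4 (AT2G34430) and LHCB1.5 (AT2G34420), a second pair of neighbours separated by 1038 bp, shared 1 region in KC and had none in TL. This region, on chromosome 2 at 14523501 to 14523811, held 197 IP tags and no control tag in KC, where it ranked 28 by IP tags and 11 by fold enrichment (33.9-fold). It lay between the genes, 137 bp from LHCB1.5 and 902 bp from LHCB1.4. The nearest TL summit to LHCB1.5 was 128337 bp away. Of the 25 nuclear KC regions with at least 197 IP tags, 3 did not overlap a TL region, so the missing TL region was not the sole case of its kind among high KC regions. Why TL lists none here was not tested.

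LHCB2.1 (AT2G05100) had a region 57 bp outside the gene in KC and 49 bp outside in TL, with 146 and 139 IP tags and no control tag. Its close relative LHCB2.2, 22517 bp away from it, had no region in any list. How reads matching both of these genes were handled is not stated either. LHCB2.3 (AT3G27690) had 2 regions in each list. The nearer one, 99 bp from the gene in KC and 113 bp in TL, held 63 and 68 IP tags, below the list medians of 74.5 and 75. The farther one, 1497 bp away in KC and 1499 bp in TL, held 69 and 71 IP tags and lay nearer to AT3G27680 and RST1 than to LHCB2.3. LHCB3 (AT5G54270), which encodes the third kind of trimer subunit, had its summit inside the gene, 130 bp from an end in KC and 122 bp in TL, with 79 and 83 IP tags. Within LHCII the IP tags of the nearest region to a gene thus ran from 63 at LHCB2.3 to 262 at LHCB1.1 in KC.

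Among the other PSII antenna genes (LHCB4 to LHCB7), 4 of 6 had a region in both lists: LHCB4.1, LHCB4.2, LHCB5 and LHCB6. These 4 encode monomeric antennae that join LHCII to PSII. LHCB4.2 (AT3G08940), which encodes a form of CP29, had 149 IP tags in KC and 154 in TL. LHCB5 (AT4G10340), the gene of CP26, had 133 and 143. These 2 regions were among the widest at the genes described, at 566 bp in KC for LHCB4.2 and 553 bp for LHCB5, against a median of 267 bp over all KC regions. Both lay in or beside narrow gaps to a neighbouring gene. The LHCB4.2 summit stood 146 bp from that gene and 45 bp from AT3G08930 in KC, in a gap of 190 bp. The LHCB5 summit lay 158 bp outside LHCB5 and inside AT4G10330, 47 bp of gap separating the genes. Which gene of each pair such a region serves cannot be told from the lists.

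LHCB6 (AT1G15820), the gene of CP24, had its summit inside the gene and 14 bp from an end in KC (18 bp in TL), with 95 and 86 IP tags. The region counted for LHCB4.1 (AT5G01530) was the farthest of those within 3000 bp, at 2693 bp in KC and 2705 bp in TL, with 76 and 75 IP tags. AIRP2, a RING-type ubiquitin ligase gene, was much nearer to it (259 bp in KC and 271 bp in TL), as was RUS5. Just outside the limit, the nearest region of HA-PRR7 experiment 1 to any of the 43 genes was 4196 bp from LHCB1.2, inside CARB, with 7 IP tags and 14 control tags. LHCB4.3 and LHCB7 had no region.

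The antenna of PSI had a region in both lists at 3 of its 6 genes, LHCA1, LHCA3 and LHCA4, which encode proteins of the antenna belt along one side of PSI. LHCA1 (AT3G54890) had 214 IP tags in KC and 202 in TL, the second-highest count among the regions found in both lists. Its region on chromosome 3, 20340742 to 20341373, was the widest of the KC regions described, at 632 bp, and its summit lay inside the gene, 42 bp from an end in KC. LHCA4 (AT3G47470) had 142 and 125 IP tags, with the summit 45 bp outside the gene in KC and 52 bp in TL. LHCA3 (AT1G61520) had 122 and 113 IP tags, with the summit 224 bp inside the gene in KC. LHCA2, which belongs to the same belt, had no region within 3000 bp, and its nearest KC summit was 40475 bp away. LHCA5 and LHCA6, known for joining PSI to the NADH dehydrogenase-like complex, had none either.

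Of the core genes, none of the 12 PSA genes of PSI had a region in any list. Their nearest summits in KC lay between 67113 bp (PSAL) and 592682 bp (PSAG) away. These 12 genes were PSAD1, PSAD2, PSAE1, PSAE2, PSAF, PSAG, PSAH1, PSAH2, PSAK, PSAL, PSAN and PSAO. Among the PSB genes of PSII, 4 of 10 had a region in both lists. PSBP1 (AT1G06680), a subunit of the oxygen-evolving complex, had its summit inside the gene, with 71 IP tags in KC and 64 in TL. PSBR (AT1G79040), which helps to hold that complex in place, had its summit at the very end of the gene, 2 bp inside it in KC and 1 bp in TL, with 64 and 71 IP tags. PSBS (NPQ4, AT1G44575) encodes the sensor that switches on heat dissipation of excess light and is a relative of the antenna proteins. Its summit lay inside the gene, 1447 bp from the nearer end in KC, with 71 IP tags in KC and 69 in TL.

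The fourth, PSBO1 (AT5G66570), which encodes the manganese-stabilising protein, was counted through a region of 110 IP tags in KC and 109 in TL. Its summit was 2018 bp from PSBO1 in KC and lay inside another gene, AT5G66580. PSBO2, PSBQ1, PSBQ2, PSBW, PSBX and PSBY had no region. When only the nearest protein-coding gene was taken, PSBO1 was lost from the core genes, and LHCB1.3, LHCB4.1, LHCB4.2 and LHCB5 from the antenna genes. The counts in both lists were then 9 of 21 antenna genes (42.9%) and 3 of 22 core genes (13.6%). The background under this rule was not counted, and 2.34% belongs to the 3000 bp rule.

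The regions with the most tags were at antenna genes. Over the 14 antenna regions of KC the median was 128 IP tags, with values from 63 to 262, and over the 4 core regions it was 71, with values from 64 to 110. In TL the medians were 102 for antenna regions and 70 for core regions. The other nuclear regions had a median of 73 IP tags in KC and 74 in TL. In KC, 12 of the 14 antenna regions exceeded the median of the whole list, against 1 of the 4 core regions, that beside PSBO1. By IP signal at the summit, PSBS (14.1) also exceeded the KC list median of 13.2. In TL these counts were 10 of 14 and 1 of 4. The ranges of antenna and core regions overlapped in both lists, LHCB4.1 being among the antenna genes within the range of the core genes. The nearer LHCB2.3 region was within that range in TL and just below it in KC, at 63 IP tags.

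**Figure D3:**
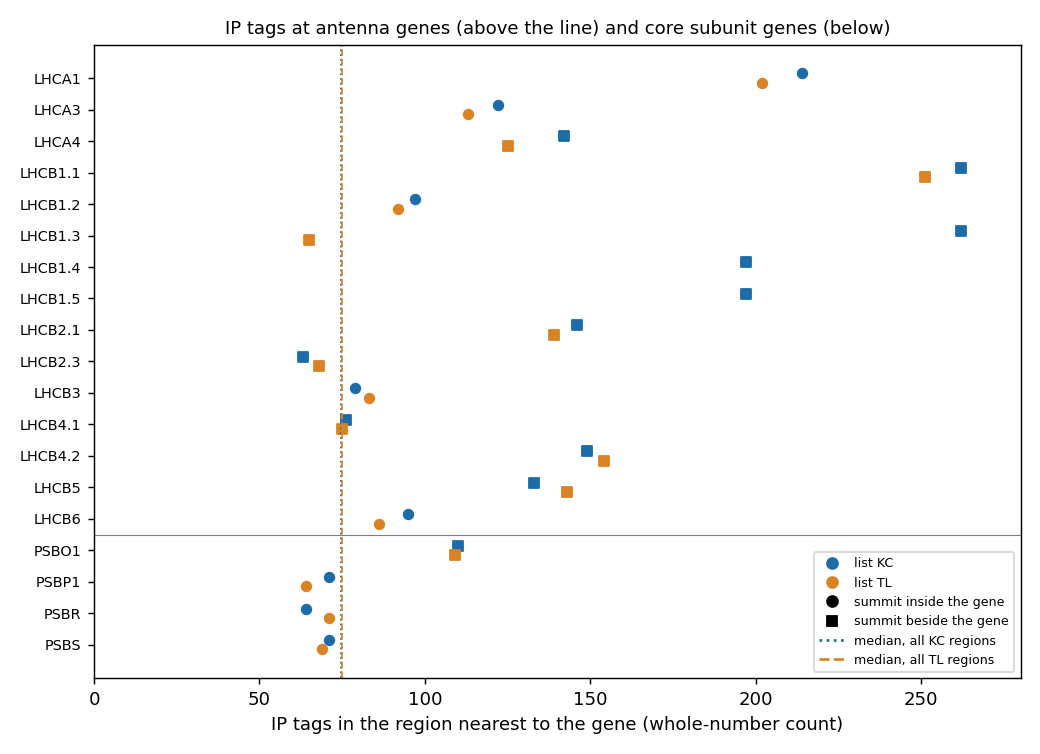
IP tags of the region nearest to each gene with a region, in KC (blue) and TL (orange), for antenna genes above the grey line and core genes below it; circles mark a summit inside the gene, squares one beside it, and vertical lines the medians of all regions (74.5 and 75). LHCB1.1 and LHCA1 lie far above the medians in both lists. PSBP1, PSBR and PSBS lie just below them, and LHCB1.3 has its nearest region in KC in common with LHCB1.1.

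Most summits at these genes lay near an end of a gene. In KC, 13 of the 18 summits were within 200 bp of an end of some protein-coding gene (72.2%), against 45.2% of the other 354 nuclear summits, and in TL 13 of 18 against 43.8%. The window of 200 bp was chosen after the values were seen. Neither gene length nor the width of gaps between genes was taken into account, though short genes and narrow gaps put more positions near an end. Of the 18 summits in each list, 8 lay outside every protein-coding gene (44.4%), against 69.5% of the other nuclear summits in KC and 68.9% in TL. All 8 were at antenna genes, and the 4 core summits were all inside a gene. That gene was not always the one counted: the PSBO1 summit lay inside AT5G66580, and among antenna genes the LHCB5 summit lay inside AT4G10330. The gene table used gives neither strand nor exons, so whether an end is the start or the finish of transcription, and whether an inside summit is in an exon, an intron or an untranslated part, was not determined.

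The 2 lists of experiment 2 gave alike IP tags but not alike folds. Both lists belong to 1 sample, so their alike tags and summits do not show that a region recurs in another sample. In the 17 regions at these genes that overlapped between KC and TL, the ratio of TL to KC tags ran from 0.88 to 1.11, and the summits differed by 1 to 14 bp. The ratio of TL to KC fold enrichment ran from 0.189 to 4.26, and in 5 of the 17 it was beyond 1.5 times in one direction or the other. The fold is the IP signal over the control signal at the summit, and the control held 0 to 3 tags in each of these regions. LHCA1 had a control signal of 4.59 in KC and 0 in TL, which gave 6.99-fold (rank 316) in KC and 29.5-fold (rank 19) in TL from nearly the same IP tags. LHCB4.2 had 4.55-fold in KC and 19.4-fold in TL. LHCA4 had the higher fold in KC, at 16.2-fold against 3.06-fold in TL, and so did PSBR, at 11.7-fold against 2.96-fold. The LHCB2.3 regions had a control signal of 2.94 to 4.17 in both lists and stood at 2.99-fold to 4.52-fold. Order among these genes was therefore read from IP tags. Tags are counted over a whole region, so a wide region can hold more of them. By IP signal at the summit some genes changed place. In KC, LHCA4 ranked 58 by tags and 107 by signal, and LHCB5 63 and 96, whereas LHCB6 ranked 125 and 75.

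**Figure D4:**
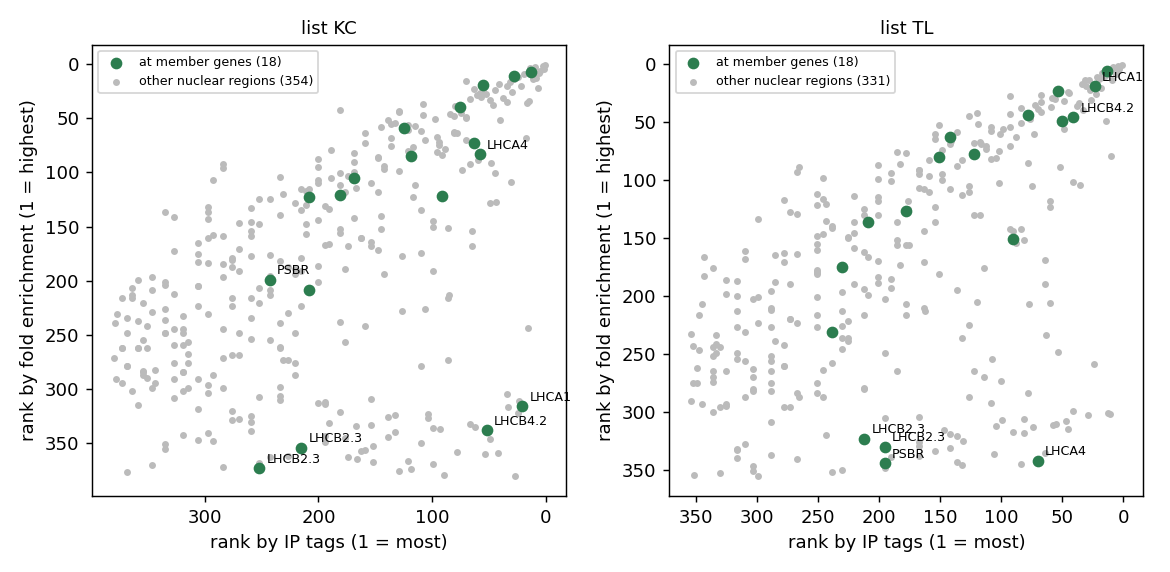
Rank by fold enrichment (vertical, 1 highest) against rank by IP tags (horizontal, 1 most) for nuclear regions of lists KC and TL; green points are regions at the genes described (18 per list), grey points the others. LHCA1 and LHCB4.2 drop to fold ranks of 316 and 338 in KC but not in TL, and LHCA4 drops to 342 in TL but not in KC.

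Experiment 1 gave no region at any of the 43 genes, at a lower tag depth per region. Its HA-PRR7 list had a median of 10 IP tags per region and a lowest value of 6, against lowest values of 37 in KC and 38 in TL. Absence from that list therefore does not show absence of binding. Of the 18 regions at these genes in each list, 0 overlapped a region of experiment 1. Of the other nuclear KC regions within the same range of tags (63 to 262), 57 of 222 did (25.7%). Of the other nuclear TL regions within the range there (64 to 251), 49 of 207 did (23.7%). Nuclear regions of each list were then ordered by IP tags and split into 5 groups of nearly equal size. The KC group with the most tags (119 to 1054) held 8 regions at these genes, LHCB1.1 and LHCA1 among them, and 0 of these overlapped experiment 1, against 52% of the whole group. No difference between these shares was tested. Untagged prr7-3 gave no nearer signal, its closest summit being 12194 bp from LHCB6, but no list of that line from experiment 2, where the regions occurred, was used here. The part of antibody background in these regions was not tested.

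**Figure D5:**
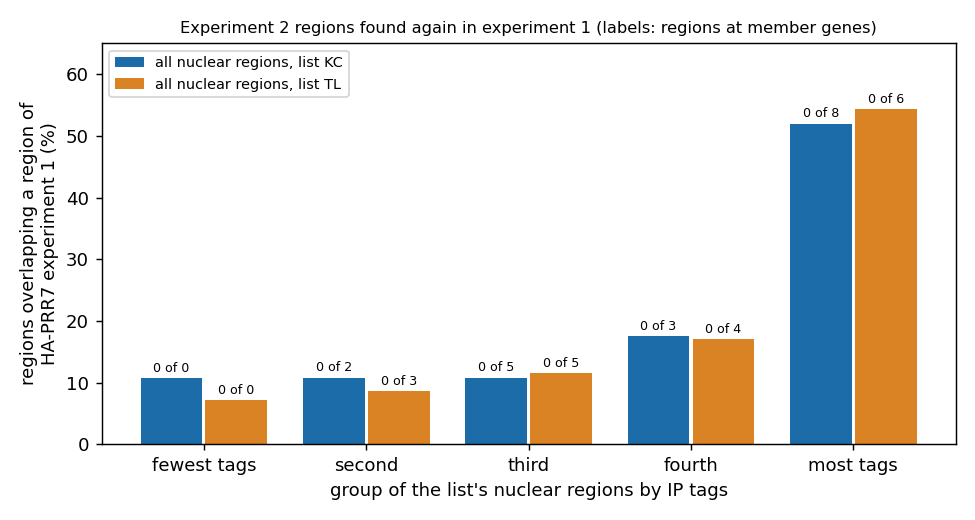
Percentage of nuclear regions of lists KC and TL that overlapped an HA-PRR7 region of experiment 1, in 5 groups of each list of nearly equal size from fewest to most IP tags; the labels count the regions at the genes described that did so. In the group with the most tags, 0 of 8 regions at these genes in KC and 0 of 6 in TL overlapped, against 52% and 54.3% of all regions there.

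Regions at other photosynthesis genes were counted by the same rule. Beside the 61.9% of antenna genes and 18.2% of core genes with a region in both experiment 2 lists, 4 of 39 genes for electron transport and ATP synthase, the Calvin cycle, and antenna-like proteins, kinases and regulators had one (10.3%), with the background at 2.34%. In at least 1 HA-PRR7 list, 10 of these 39 genes had a region (25.6%), beside 44.2% of the 43 genes and the background of 7.48%. For electron transport and ATP synthase alone this was 5 of 12 (41.7%). FD2 (AT1G60950), the main leaf ferredoxin gene, was the 1 of 12 in electron transport, with 151 IP tags in KC and 144 in TL inside the gene. GAPB, a subunit of the Calvin cycle glyceraldehyde phosphate dehydrogenase, had 73 and 55. FBA2, a plastid aldolase gene, completed the 2 of 17 Calvin cycle genes through a region 2880 bp away in KC and much nearer to BBX19. ELIP1, a light-induced relative of the antenna proteins, was the 1 of 10 in the remaining list, with 206 and 190 IP tags. It also had a region in HA-PRR7 experiment 1, with 14 IP tags, 507 bp from the gene. In that list 4 of the 39 genes had a region (10.3%), against the background of 5.01%: ELIP1, TKL1 (inside the gene, 11 IP tags), ATPD (1715 bp away, 11 IP tags) and PETE2 (2631 bp away, 9 IP tags, with the summit inside SMT2). PGR5 had a region in KC alone, with 55 IP tags, and FD1 and RPE in TL alone, with 68 and 45. The RBCS genes for the small subunit of Rubisco had no region in any list.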

How the data were processed

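The submitters' processing notes name Bowtie (no version) and the build TAIR10. Which caller made the lists, how it was set and which library it used as control is not stated in these sources, and regions were listed per sample. Each deposited list gives IP and control signal at the summit, the fold enrichment as the authors' ratio of these signals, and whole-number tag counts. Tested on the values, the fold equalled IP signal over control signal (a control below 1 being set to 1) within 1% in 100% of regions of each list. These are the authors' own values, used within a list to describe, rank or filter regions. Gene spans came from the RefSeq gene table of assembly TAIR10.1, in which all 43 loci and the 39 other photosynthesis loci matched. Its spans are not the TAIR10 gene models. Distances to a gene, and whether a summit lay inside or outside one, rest on these spans, whereas coordinates are those of the deposited regions. Mitochondrial regions stayed in the ranks (8 in KC, 6 in TL). Regions overlapped when they shared at least 1 bp. Every gene with a region was named. Motifs and promoter sequences, which were planned, were not analysed for want of sequence. The assignment of regions to genes was tested on simulated data. Python 3.11.15 and pandas 2.3.3 were used. Members and lists were chosen with earlier results of these data known. The labels do not say whether each experiment had its own plants. Tag depth per region limits precision, more so in experiment 1, and total depth per library was not used. Alternatives were other distances, region edges, the nearest gene, and the 50% of each list best by q value, fold or IP tags.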

Additional observations from a re-analysis of the deposited data

How the results depend on the processing

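Of 72 values under other settings, 67 stayed near the reported one. Near meant within 1.5 times of a count, or within the 95% binomial interval of a share or median. This interval takes genes or regions as independent, though neighbouring genes share regions, and for antenna genes it ran from 38.4% to 81.9%. Several alternatives only remove regions, so a count of 0 could not rise under them. The tally therefore does not measure robustness. With the 50% of each list highest by fold, genes with a region in both experiment 2 lists fell to 11, fewer regions entering by construction. Core genes with a region in both lists fell to 4.55% with the 50% of each list best by q value. In a setting chosen after the data were seen, they also fell to 4.55% with the 50% richest in IP tags. Each time PSBO1 alone was left, through the region whose summit lay inside AT5G66580. Within 5000 bp, 1 gene (LHCB1.2) had a region in HA-PRR7 experiment 1. Genes with a region in any HA-PRR7 list ranged from 0 without replicate 2 to 19 without replicate 1. Antenna genes ranged from 42.9% to 61.9% and core genes from 4.55% to 18.2% over all settings, antenna above core in each. The background was counted for the 3000 bp rule alone, so shares under the other settings have no background of their own. No paired analysis was possible because gene counts from region lists have no model over replicates. Few IP tags per region limit precision in experiment 1, and the few control tags limit folds in experiment 2. Whether depth accounts for the lack of regions at these genes in experiment 1 was not tested.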

Other observations

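LHCA5, LHCA6, LHCB4.3 and LHCB7 encode antenna proteins known to be scarce in Arabidopsis thylakoids, and 0 of these 4 genes had a region in KC or TL. Of the other 17 antenna genes, 13 had a region in both lists and 15 in at least one. LHCA2 and LHCB2.2, which encode common antenna proteins, were the 2 of those 17 with none. The background over all nuclear protein-coding genes was 2.9% in KC, 2.71% in TL and 2.34% in both lists. No background was counted for a region in either list. At such low shares, 0 of 4 does not set the scarce-protein genes apart from nuclear genes in general. The split of antenna genes by protein amount was made after the values were seen and was not tested. It rests on general knowledge of protein amounts, since expression was not measured here.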
